A study of Mus musculus with 10 samples.

Results

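The secretory route of plasma cells starts with a coat. COPII, a protein coat built on the endoplasmic reticulum (ER), buds vesicles that carry newly made protein towards the Golgi, and COPI, a second coat recruited by ARF GTPases, returns escaped ER residents and receptors and works within the Golgi. Cargo receptors of the p24 (TMED) family and lectins ride these vesicles, KDEL receptors retrieve ER chaperones from the Golgi, and tethers and SNAREs dock and fuse the vesicles with their target. Plasma cells, whose main product is secreted antibody, depend heavily on this route.

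The vesicle transport genes described here are 45 listed symbols of the COPII coat, the COPI coat, the ARF cycle, cargo receptors, KDEL receptors and ER-Golgi tethering and fusion. All 45 were found among the 47719 gene identifiers of the deposited tables by matching Ensembl identifiers to symbols. RNA was compared between IgM plasma cells (5 libraries) and IgG1 plasma cells (5 libraries). In both groups, B cells carrying S1PR2-CreERT2, Ai14 and B1-8germ were transferred into wild-type hosts that were immunized with NP-CGG in alum on day 0 and given tamoxifen on days 5 and 6. Splenic plasma cells of donor origin that were positive for tdTomato were sorted on day 10 by isotype. S1PR2-CreERT2 marks cells that passed through a germinal-centre B cell state when tamoxifen was given, and Ai14 is the tdTomato reporter. B1-8germ is a germline antibody heavy chain variable region knocked in for the NP hapten. Donor B cells of both groups thus started with the same engineered variable region, and its sequence in the sorted cells was not examined. The labels name neither animals nor batches, and a p-value therefore reflects how these libraries vary, which may be technical. In bulk RNA, fewer cells of a type and less RNA per cell cannot be told apart.

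Levels are in FPKM, a read count corrected for transcript length and sequencing depth. Estimated depths were 26800000 to 31100000 fragments in IgM libraries and 26400000 to 38300000 fragments in IgG1 libraries, and 15121 to 15800 genes against 13286 to 13961 genes were above 0. Ighm averaged 85377 ± 3310 FPKM in IgM libraries and 1170 ± 85.5 FPKM in those of IgG1 cells, and Ighg1 averaged 14974 ± 4280 FPKM in IgM libraries and 93807 ± 8149 FPKM in those of IgG1 cells (SD over 5 libraries each). Plasma cell markers were high in all libraries, with a summed level of 39720 to 43929 FPKM against 23220 to 26671 FPKM, most of it Jchain. Among mature B cell markers, Ms4a1 was at 53.7 to 76.4 FPKM in IgM libraries and 35.4 to 51.2 FPKM in IgG1 libraries, while Pax5 reached at most 0.335 FPKM against 0.176 FPKM. The 8 T cell markers summed to 3.97 to 6.52 FPKM against 2.29 to 3.81 FPKM with Cd5 at 0 throughout. Within this sum Trac was higher in IgM (means of 2.37 FPKM against 0.201 FPKM, limma adjusted p 0.000341) and Cd4 lower (0.280 FPKM against 1.87 FPKM, adjusted p 0.00458), neither with overlap. The 8 myeloid markers summed to 30.9 to 36.7 FPKM against 12.4 to 19.6 FPKM, with S100a8 and S100a9 at 0. Cd68 made up 89.6 to 98.2% of that sum in IgM libraries and 70.3 to 85.7% in IgG1 libraries, and the other myeloid markers together gave 0.660 to 3.40 FPKM against 1.78 to 5.64 FPKM, with Itgam lower in every IgM library than in any IgG1 library. The 7 erythroid markers reached at most 5.60 FPKM against 4.23 FPKM, and the 6 NK cell markers at most 1.26 FPKM against 0. The part of these markers, of Ighg1 RNA in the IgM libraries, of depth and of the number of genes above 0 in the results below was not tested.

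Of the 45 genes, 18 were higher in IgM plasma cells, 8 were lower and 19 did not pass a limma test with Benjamini-Hochberg adjustment over 9900 genes at 0.05. That is 57.8% called, against a background of 38.3% of all tested genes in either direction, 20.2% higher and 18.1% lower, and against 47.4% of the 6865 genes averaging 5 FPKM or more. This excess did not hold under every setting: limma without trend and robust settings called 31.1% of the members and 36.7% of all genes, leaving out IgG1 replicate 1 called 35.6% of both, and leaving out IgM replicate 3 called 37.8% and 36.3%. Over all genes, 2001 were higher and 1791 lower, a split that became 1510 and 2182 under quantile normalization. The median log2 difference, IgM minus IgG1 on the log2(FPKM + 1) scale, was 0.12 over the members and 0.05 over all tested genes; without IgM replicate 1 the members' median was 0.0756. The IgM and IgG1 libraries did not overlap for 17 members, of which 12 were higher and 5 lower in IgM, and for 26.3% of all tested genes. The number called higher was 10 without IgM replicate 3 and 11 without IgG1 replicate 1, and the number called lower was 5 without IgM replicate 2, IgM replicate 4, IgG1 replicate 1 or IgG1 replicate 4.

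The 9 members Stx5a, Uso1, Sec24a, Bet1, Kdelr3, Preb and Arf4 (higher in IgM) and Tmed9 and Kdelr1 (lower in IgM) passed under each of 23 alternative settings. The calls of the other 17 called members were lost under at least 1 setting, for 12 of them when a single library was left out. Summed over all 45 genes, the level was 6985 to 7404 FPKM in IgM libraries and 6827 to 7078 FPKM in IgG1 libraries, or 1.40 to 1.46% against 1.31 to 1.39% of all FPKM outside the immunoglobulin genes. Summed by complex, the COPII coat, the COPI coat and the cargo receptors overlapped between the groups. The ARF cycle was barely apart, at 969 to 1049 FPKM in IgM libraries and 922 to 968 FPKM in IgG1 libraries. Tethers and SNAREs and the KDEL receptors differed in opposite directions. The summed level of tethers and SNAREs was 665 to 734 FPKM in IgM libraries and 497 to 569 FPKM in IgG1 libraries, whereas the 3 KDEL receptors summed to 182 to 197 FPKM in IgM libraries and 219 to 235 FPKM in IgG1 libraries.

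**Figure D1:**
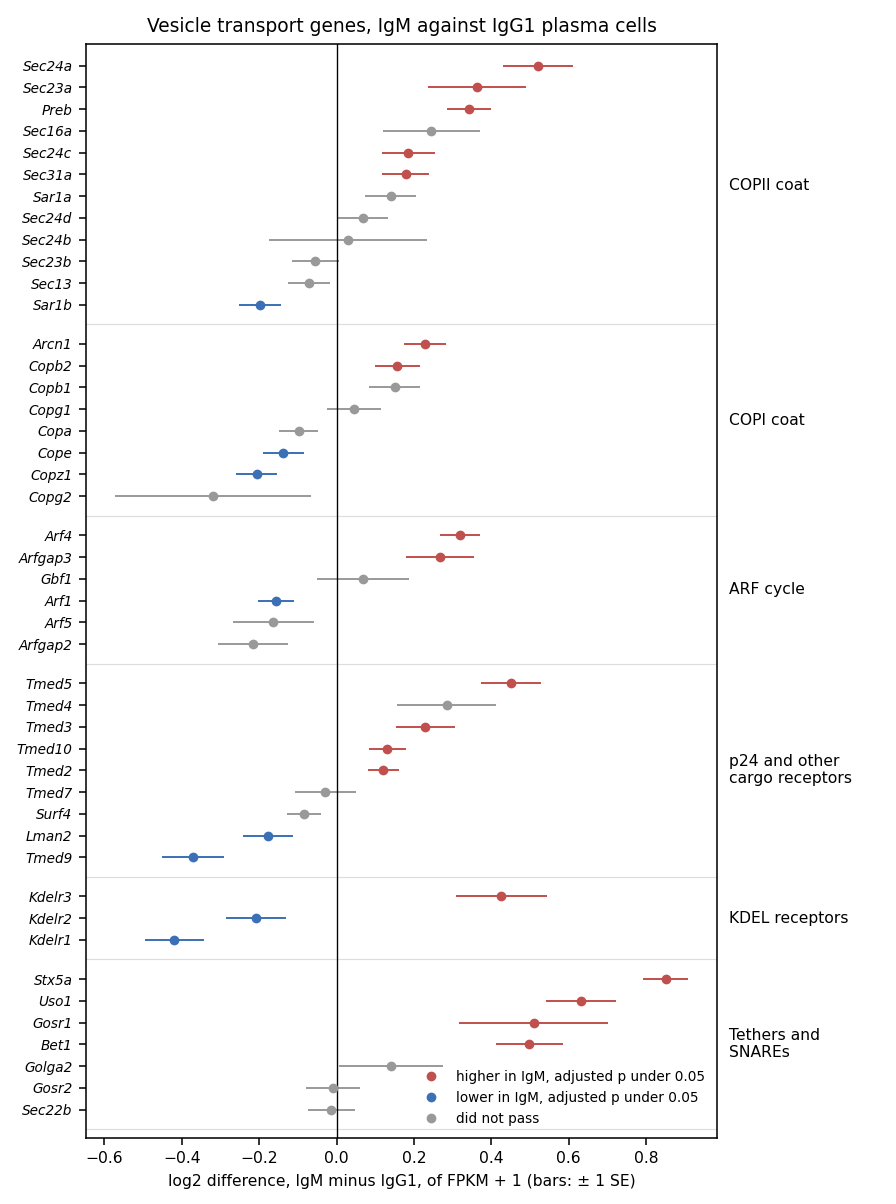
Log2 difference in FPKM + 1, IgM minus IgG1, of each of the 45 genes with 1 SE, grouped by complex; red points passed as higher in IgM, blue as lower, grey did not pass. Stx5a lies farthest to the right at 0.85 and Kdelr1 farthest to the left at -0.42, and each complex except the tethers and SNAREs holds genes called in both directions.

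By level, the genes spanned about 2 orders of magnitude. Tmed2, a p24 receptor, was the most abundant at 766 ± 23.6 FPKM in IgM plasma cells and 705 ± 26.2 FPKM in IgG1 plasma cells (SD, n = 5 each), which ranked it 118 among the 9900 tested genes by mean level. Cope, Arf4, Tmed9 and Surf4 followed with ranks of 193, 212, 214 and 266. Among these 5 genes, the ranges of Cope and Arf4 and of Tmed9 and Surf4 overlapped in the IgM libraries, and those of Cope and Tmed9 and of Arf4 and Surf4 in the IgG1 libraries. Arf4 lay above Tmed9 in every IgM library and below it in every IgG1 library. The lowest members were Sec24b, with means of 6.89 ± 1.13 FPKM in IgM plasma cells and 6.92 ± 2.08 FPKM in IgG1 plasma cells, and Copg2, with 6.55 ± 2.99 FPKM and 7.83 ± 1.39 FPKM. Spread between libraries was small for most members, with a median coefficient of variation of 6.27% in IgM and 6.71% in IgG1 libraries. It was widest for these low genes, at 45.6% for Copg2 in IgM and 30.0% for Sec24b in IgG1.

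**Figure D2:**
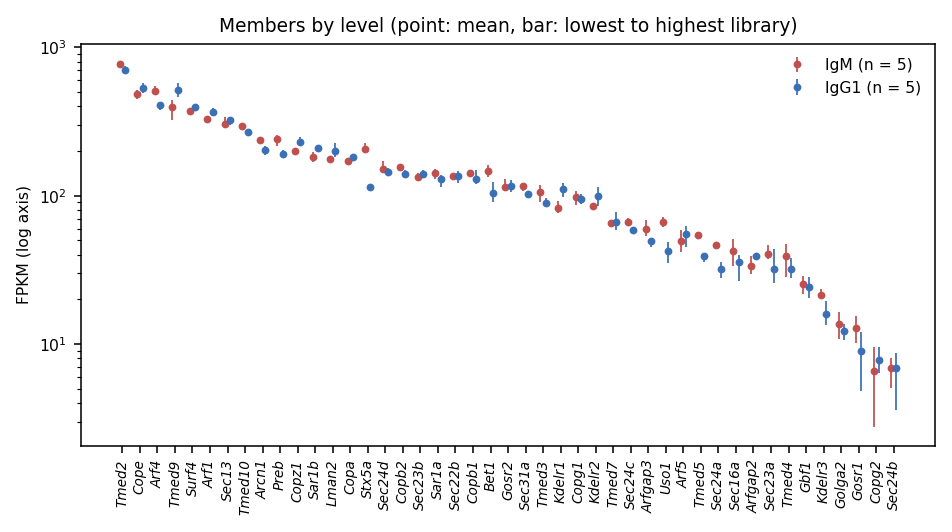
Level of each gene on a log axis in FPKM, with the group mean as a point and the lowest to highest of 5 libraries as a bar, IgM in red left of IgG1 in blue. Genes run from Tmed2, with means of 766 and 705 FPKM, to Sec24b and Copg2, near 7 FPKM.

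Of 12 genes of the COPII coat, 5 were higher in IgM plasma cells, 1 was lower and 6 did not pass, with a median log2 difference of 0.16. The share called, 50%, was near the 47.4% of all genes averaging 5 FPKM or more. Limma without trend and robust settings called Sec24a and Preb higher and Sar1b lower, and with length and GC trends removed 4 were higher and 2, Sar1b and Sec23b, were lower. Sec24a, 1 of 4 paralogs of the inner-coat subunit that binds cargo, had 46.6, 47.1, 46.9, 47.7 and 43.8 FPKM in IgM libraries, against 30.0, 32.8, 34.7, 27.7 and 35.7 FPKM in IgG1 libraries. All IgM libraries lay above all IgG1 libraries, a 1.44-fold difference in means (log2 difference 0.52, SE 0.09, adjusted p 0.000167). The gene lies at chr11:51692264-51763634 on the minus strand (GRCm38, GENCODE M21, ENSMUSG00000036391).

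Preb, the mammalian Sec12 that loads the coat's GTPase Sar1 with GTP at the ER membrane, had 245, 248, 256, 249 and 217 FPKM in IgM libraries and 184, 197, 179, 194 and 202 FPKM in IgG1 libraries. Its groups did not overlap (log2 difference 0.34, SE 0.058, adjusted p 0.000132), although IgM replicate 5 stood below the other IgM libraries. Preb lies at chr5:30950853-30960361 on the minus strand (ENSMUSG00000045302) and shares 1575 of its 7209 exonic bases with Abhd1 on the opposite strand, which the unstranded libraries cannot tell apart. In all, 18 of the 45 genes share exonic bases with another annotated gene. Abhd1 itself averaged 0.665 FPKM in IgM plasma cells and 0.0833 FPKM in IgG1 plasma cells.

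Sec23a, a paralog of the inner-coat subunit that activates Sar1's GTP hydrolysis, had 37.4, 46.3, 41.0, 37.2 and 42.0 FPKM in IgM libraries and 29.1, 27.4, 44.0, 25.7 and 33.6 FPKM in IgG1 libraries. The groups overlapped through IgG1 replicate 3, the highest IgG1 value (log2 difference 0.36, SE 0.13, adjusted p 0.0303). Sar1b, 1 of 2 Sar1 GTPases, was lower in IgM at 185, 179, 196, 186 and 169 FPKM, against 204, 201, 219.7, 212 and 213 FPKM in IgG1 libraries, with no overlap (log2 difference -0.20, SE 0.054, adjusted p 0.00761), and did not pass under quantile normalization (adjusted p 0.0539). Sec31a, an outer-coat subunit, averaged 116 ± 5.09 FPKM in IgM and 102 ± 3.82 FPKM in IgG1 plasma cells, and Sec24c averaged 66.6 ± 2.85 FPKM and 58.4 ± 1.74 FPKM (SD, n = 5 each). Both were higher in IgM without overlap, by log2 differences of 0.18 and 0.19 (adjusted p 0.025 and 0.0397). Several of these calls lay near the threshold and were lost with 1 library fewer, at log2 differences of 0.16 for Sec31a, 0.29 to 0.36 for Sec23a and 0.16 to 0.19 for Sec24c. Sec31a did not pass without IgM replicate 4 or IgG1 replicate 1 (adjusted p 0.0597 to 0.0668), Sec23a without IgM replicate 2, 3 or 5 or IgG1 replicate 1, 2 or 4 (0.0515 to 0.0852), and Sec24c without IgM replicate 2, 3, 4 or 5 or IgG1 replicate 1, 2, 3 or 4 (0.0564 to 0.0986).

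Sec13, the partner of Sec31 in the outer coat and also a nuclear pore subunit, was the most abundant COPII gene at 337, 291, 305, 287 and 311 FPKM in IgM libraries and 309, 320.2, 301, 338 and 339.8 FPKM in IgG1 libraries. These values overlapped and did not pass (adjusted p 0.332). Sec23b, Sec24b, Sec24d, Sar1a and Sec16a, the scaffold of ER exit sites, did not pass either, with log2 differences from -0.05 for Sec23b to 0.24 for Sec16a. Sec16a passed without IgM replicate 4 (log2 difference 0.33, adjusted p 0.04998).

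Sec24a and Sar1b, called in opposite directions, are neighbours on chromosome 11. They are transcribed away from each other, and 52 bases separate the annotated start of Sec24a at 51763634 from the start of Sar1b at 51763687. Of those, the 28 bases up to the RefSeq start site of Sar1b (GRCm38.p6, chr11:51763635-51763662, plus strand) are shown because they lie between the 2 genes, directly beside the GENCODE start of Sec24a. The RefSeq promoter table places the start of Sec24a farther inside the gene.
Sec24a/Sar1b: gcggggcctgggacctgcggactgtcac

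Subunits of the COPI coat were called in both directions, also within its subcomplexes, but none of the 8 passed with length and GC trends removed. As tested, 2 were higher in IgM, 2 were lower and 4 did not pass, with a median log2 difference of -0.03. That is 50% called, near the 47.4% of all genes averaging 5 FPKM or more. Arcn1 (delta-COP), of the adaptor-like subcomplex, had 230.2, 239.6, 232, 238 and 240.3 FPKM in IgM libraries, against 188, 203, 211, 189 and 218 FPKM in IgG1 libraries, without overlap (log2 difference 0.23, SE 0.054, adjusted p 0.00279). Copz1 (zeta-COP), of the same subcomplex, was lower in IgM, at 198, 206, 199, 202 and 191 FPKM in IgM libraries and 223, 219, 224, 237 and 248 FPKM in IgG1 libraries, again without overlap (log2 difference -0.21, SE 0.052, adjusted p 0.0044).

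Among the cage subunits, Copb2 (beta-prime-COP) had 162, 153, 157, 149 and 159 FPKM in IgM libraries and 141, 132, 145, 131 and 149.7 FPKM in IgG1 libraries, a higher level in IgM (log2 difference 0.16, SE 0.057, adjusted p 0.0381) whose groups overlapped at IgG1 replicate 5. Cope (epsilon-COP), the most abundant subunit, had 512, 466, 505, 451 and 474 FPKM in IgM libraries and 575, 493, 496, 553 and 534 FPKM in IgG1 libraries. It was lower in IgM (log2 difference -0.14, SE 0.053, adjusted p 0.0476) with overlapping groups. Copb2 did not pass without IgM replicate 1, 2, 3 or 5 or IgG1 replicate 1, 2 or 4 (adjusted p 0.0518 to 0.0951), and Cope not without IgM replicate 2, 4 or 5 or IgG1 replicate 1, 4 or 5 (0.0814 to 0.127). Copa (alpha-COP), Copb1 (beta-COP), Copg1 and Copg2 (gamma-COP) did not pass, with log2 differences from -0.32 for Copg2 to 0.15 for Copb1, and that of Copg2 was -0.09 without IgM replicate 3 and from -0.47 to -0.20 without any other single library. Copb1 passed without IgG1 replicate 5 (log2 difference 0.20, adjusted p 0.0130), the library with 149 FPKM, against 121 to 127 FPKM in the other IgG1 libraries.

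In the ARF cycle, which switches COPI recruitment on and off, 2 of 6 genes were higher in IgM, 1 was lower and 3 did not pass. Here too 50% were called, near the 47.4% of all genes averaging 5 FPKM or more. Arf4 (chr14:26638074-26665084, plus strand, ENSMUSG00000021877), a class II ARF GTPase, had 552, 478, 527, 497 and 484 FPKM in IgM libraries and 378, 402, 431, 398 and 424 FPKM in IgG1 libraries. Every IgM value lay above every IgG1 value, a 1.25-fold difference in means (log2 difference 0.32, SE 0.052, adjusted p 8.94e-05). Arf4 shares 527 of its 3603 exonic bases with Pde12 on the opposite strand, which averaged 5.37 FPKM in IgM and 5.04 FPKM in IgG1 plasma cells.

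Arf1, the class I ARF that recruits COPI, was lower in IgM, at 331, 334, 321, 316 and 344 FPKM in IgM libraries and 373, 351, 356, 368 and 389 FPKM in IgG1 libraries, without overlap (log2 difference -0.16, SE 0.046, adjusted p 0.0122). Without IgG1 replicates 4 and 5, Arf1 did not pass (adjusted p 0.059), nor with limma's variance estimate run without trend and robust settings (0.0915), and with length and GC trends removed its sign turned (0.03, adjusted p 0.713). Arfgap3, a GTPase-activating protein that ends the ARF cycle, had 65.5, 55.2, 68.3, 55.0 and 53.8 FPKM in IgM libraries and 47.2, 51.1, 44.8, 52.1 and 50.8 FPKM in IgG1 libraries, higher in IgM without overlap (log2 difference 0.27, SE 0.087, adjusted p 0.0225). It did not pass without IgM replicate 1, IgM replicate 3 or IgG1 replicate 3 (adjusted p 0.0578 to 0.0664). Arf5, Arfgap2 and the ARF exchange factor Gbf1 had log2 differences of -0.16, -0.22 and 0.07 and did not pass. Arfgap2 passed as lower without IgM replicate 5 (log2 difference -0.27, adjusted p 0.0324).

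Cargo receptors split as well, with 4 of 9 higher in IgM, 2 lower and 3 not passing. The 66.7% called compare with 47.4% of all genes averaging 5 FPKM or more. Limma without trend and robust settings called only Tmed5 higher and Tmed9 lower. Tmed5, of the p24 gamma subfamily, had 55.0, 54.2, 56.2, 51.6 and 54.6 FPKM in IgM libraries, against 35.7, 40.4, 40.0, 40.0 and 41.4 FPKM in IgG1 libraries. The groups did not overlap, and the means differed 1.38-fold (log2 difference 0.45, SE 0.077, adjusted p 0.00015). Tmed5 shares 395 of its 7688 exonic bases with Mtf2 on the opposite strand, which averaged 17.8 FPKM in IgM and 13.1 FPKM in IgG1 plasma cells.

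Tmed9, of the p24 alpha subfamily (chr13:55573732-55597697, plus strand, ENSMUSG00000058569), was lower in IgM, at 439.7, 429, 324, 392 and 398 FPKM in IgM libraries and 524, 536, 571, 468 and 460.5 FPKM in IgG1 libraries. No IgM library reached the lowest IgG1 library, and IgM replicate 3 was the lowest of all (log2 difference -0.37, SE 0.08, adjusted p 0.00196). Lman2 (VIP36), a lectin that binds high-mannose glycans on cargo, was also lower, at 176, 178, 182, 169.7 and 178 FPKM in IgM libraries and 226, 191, 181, 218 and 187 FPKM in IgG1 libraries. Its groups overlapped slightly, IgM replicate 3 lying above IgG1 replicate 3 (log2 difference -0.18, SE 0.064, adjusted p 0.037), and it did not pass without IgM replicate 1, 2, 4 or 5 or IgG1 replicate 1 or 4 (0.0575 to 0.107).

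Tmed2, the p24 beta member, had 777, 734, 795, 774 and 752 FPKM in IgM libraries and 689, 703, 699, 685 and 750.3 FPKM in IgG1 libraries, with the high IgG1 replicate 5 making the groups overlap (log2 difference 0.12, SE 0.04, adjusted p 0.0248), and its sign turned under quantile normalization (-0.022). Tmed3, of the gamma subfamily, had 119, 90.9, 114, 99.4 and 104 FPKM in IgM libraries and 89.5, 84.9, 90.1, 97.2 and 85.6 FPKM in IgG1 libraries. It was higher in IgM with overlapping groups (log2 difference 0.23, SE 0.076, adjusted p 0.0235). Tmed10, the delta member, averaged 294 ± 11.9 FPKM in IgM and 268 ± 9.40 FPKM in IgG1 plasma cells (SD, n = 5 each; adjusted p 0.0399). These 3 calls were each lost without some single library: Tmed2 without IgM replicate 1, 3 or 4 or IgG1 replicate 1 (adjusted p 0.0512 to 0.0569), Tmed3 without IgM replicate 1 or 3 or IgG1 replicate 2 or 5 (0.0510 to 0.0718), and Tmed10 without IgM replicate 1, 3, 4 or 5 or IgG1 replicate 1, 2 or 4 (0.0518 to 0.108). Surf4, a receptor for soluble cargo, Tmed4 and Tmed7 did not pass, with log2 differences of -0.08, 0.28 and -0.03. Tmed4 passed without IgM replicate 5 (log2 difference 0.40, adjusted p 0.0115).

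The 3 KDEL receptors all passed, against 47.4% of all genes averaging 5 FPKM or more, and did not share a direction. Kdelr1 (chr7:45872772-45883732, plus strand, ENSMUSG00000002778) was lower in IgM, at 80.7, 91.5, 76.6, 83.0 and 81.8 FPKM in IgM libraries and 121, 121, 114, 103 and 97.3 FPKM in IgG1 libraries, without overlap (log2 difference -0.42, SE 0.076, adjusted p 0.000266). Kdelr3 (chr15:79516411-79527739, plus strand, ENSMUSG00000010830), the least abundant of the 3, was higher in IgM, at 21.5, 20.5, 22.0, 20.2 and 23.5 FPKM in IgM libraries and 13.4, 15.0, 19.5, 16.1 and 15.4 FPKM in IgG1 libraries. Its groups also stayed apart, by less than 1 FPKM between the lowest IgM and the highest IgG1 library (log2 difference 0.43, SE 0.12, adjusted p 0.00805).

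Kdelr2 had 83.8, 85.0, 83.8, 86.0 and 85.8 FPKM in IgM libraries and 99.9, 89.3, 85.2, 106 and 114 FPKM in IgG1 libraries, lower in IgM (log2 difference -0.21, SE 0.077, adjusted p 0.04) with an overlap at IgG1 replicate 3. The IgM libraries lay within 3 FPKM of one another, whereas IgG1 replicates 4 and 5 were the highest for Kdelr2 and the lowest for Kdelr1 among the IgG1 libraries. Kdelr2 did not pass without any 1 of the 5 IgM libraries or without IgG1 replicate 1, 4 or 5 (adjusted p 0.0607 to 0.117).

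Tethering and fusion held the largest difference of the 45 genes, and none of its 7 genes was called lower in IgM: 4 were higher and 3 did not pass, with a median log2 difference of 0.50. That is 57.1% called, against 47.4% of all genes averaging 5 FPKM or more. Stx5a (chr19:8741413-8756069, plus strand, ENSMUSG00000010110), the syntaxin at the centre of ER-to-Golgi and intra-Golgi SNARE complexes, had 198, 197, 228, 199 and 211 FPKM in IgM libraries, against 114, 110.1, 112, 113 and 119.8 FPKM in IgG1 libraries. The lowest IgM library stood well above the highest IgG1 library, and the means differed 1.81-fold (log2 difference 0.85, SE 0.058, adjusted p 5.96e-09). Uso1 (p115; chr5:92137938-92202798, plus strand, ENSMUSG00000029407), the tether that links incoming vesicles to the cis-Golgi, had 72.2, 61.1, 67.7, 66.2 and 63.3 FPKM in IgM libraries and 45.4, 39.9, 48.7, 42.9 and 35.4 FPKM in IgG1 libraries, a 1.56-fold difference in means with no overlap (log2 difference 0.63, SE 0.09, adjusted p 2.31e-05).

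Bet1 (chr6:4076899-4086972, minus strand, ENSMUSG00000032757), a SNARE partner of syntaxin 5 in ER-to-Golgi fusion, had 162, 135, 145, 159 and 135 FPKM in IgM libraries and 90.5, 101, 113, 124 and 92.7 FPKM in IgG1 libraries. The groups did not overlap (log2 difference 0.50, SE 0.087, adjusted p 0.000188). Gosr1 (GOS28), a SNARE that pairs with syntaxin 5 within the Golgi, was low, at 15.2, 11.5, 15.5, 12.3 and 10.1 FPKM in IgM libraries and 4.82, 9.39, 9.45, 9.30 and 12.0 FPKM in IgG1 libraries. Its groups overlapped (log2 difference 0.51, SE 0.19, adjusted p 0.0456), and it did not pass without IgM replicate 1, 2, 3 or 4 or IgG1 replicate 1, 2, 3 or 4 (0.0545 to 0.122). The other 2 SNAREs of the ER-to-Golgi complex did not pass: Sec22b averaged 135 ± 3.66 FPKM in IgM and 137 ± 9.58 FPKM in IgG1 plasma cells, and Gosr2 (membrin) averaged 115 ± 8.70 FPKM and 116 ± 8.75 FPKM (SD, n = 5 each). Golga2 (GM130), the cis-Golgi docking partner of p115, averaged 13.6 ± 2.00 FPKM and 12.2 ± 1.19 FPKM and did not pass (adjusted p 0.436). It shares 98 exonic bases with Swi5 on the opposite strand, which averaged 314 FPKM in IgM plasma cells and 384 FPKM in IgG1 plasma cells.

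**Figure D3:**
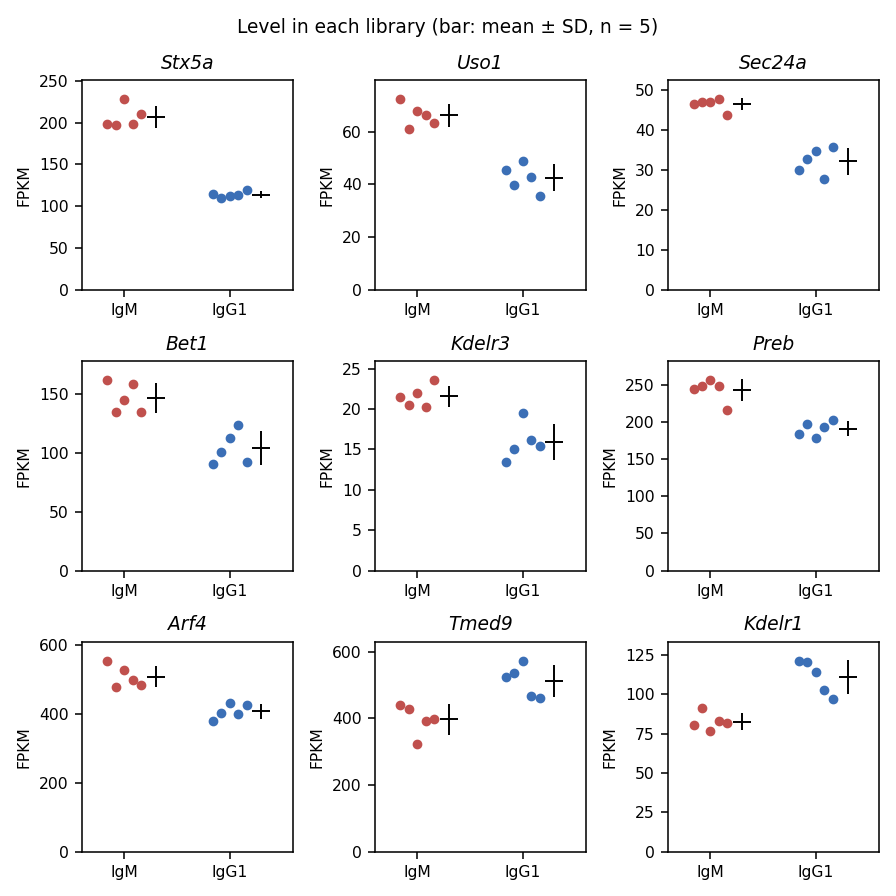
FPKM in each library of the 9 genes whose calls held under each of 23 alternative settings, IgM in red left of IgG1 in blue, with the mean ± SD beside the points. In each panel the IgM and IgG1 points do not overlap, from 197 to 228 FPKM against 110.1 to 119.8 FPKM for Stx5a to 76.6 to 91.5 FPKM against 97.3 to 121 FPKM for Kdelr1.

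Paralogs with the same role were also set against one another. The share of each in the summed FPKM of its group was taken within each library, a measure that does not depend on how libraries are scaled. Of 13 shares, 5 differed with no overlap of the groups, each at the smallest p that the 252 arrangements of a two-sided exact permutation test can give, 0.00794 (adjusted p 0.0206). Shares within a paralog group are tied to one another, so those of Arf4 and Arf1 are not separate results. Arf4 made up 57.3% ± 1.88 of the Arf1, Arf4 and Arf5 total in IgM libraries and 49.0% ± 1.62 in IgG1 libraries, and Arf1 37.2% ± 1.77 against 44.3% ± 1.57 (SD, n = 5 each). Arf4 was thus the larger part in all libraries, by a wider margin in IgM, where its share was 8.23 percentage points higher. Sar1a made up 43.9% ± 1.47 of Sar1 in IgM libraries and 38.2% ± 1.46 in IgG1 libraries. Sar1a itself did not pass as a single gene, averaging 143 ± 9.37 FPKM in IgM plasma cells and 130.1 ± 9.54 FPKM in IgG1 plasma cells. It did pass as higher with a common total outside the immunoglobulin genes (log2 difference 0.16, adjusted p 0.0443), under quantile normalization (0.19, 0.0222) and without IgG1 replicates 4 and 5 (0.20, 0.048).

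Sec24a held 17.1% ± 0.923 of the 4 Sec24 paralogs in IgM libraries and 13.3% ± 1.13 in IgG1 libraries. Sec24d was the main paralog in both, at 55.8% ± 2.17 against 59.7% ± 1.44, a difference that did not pass (exact permutation p 0.0317, adjusted p 0.0688) except without IgM replicate 1 (adjusted p 0.0172). Kdelr3 held 11.4% ± 0.832 of the KDEL receptors in IgM libraries and 7.05% ± 1.16 in those of IgG1 cells. Kdelr1, at 43.7% against 49.2%, did not pass (exact permutation p 0.0635, adjusted p 0.0917), but did without IgG1 replicate 5 (adjusted p 0.0295) or without IgG1 replicates 4 and 5 (0.0332), where Kdelr2 passed too (4.49 points higher in IgM, adjusted p 0.0332). Sec23a held 23.3% of Sec23 in IgM and 18.6% in IgG1 libraries, which passed only without IgG1 replicate 3 (adjusted p 0.0172, against 0.0917 with all libraries). Arf5, at 5.56% against 6.67%, passed only without IgG1 replicate 5 (0.0295, against 0.0917). Each share that passed only with fewer libraries did so when libraries that made its groups overlap were left out. Such passes therefore add no support. With all libraries, the shares of Sec24b, Sec24c, Copg1 and Kdelr2 did not pass (adjusted p 0.444 to 0.690). Copg1 made up 93.8% of gamma-COP in IgM and 92.4% in IgG1 libraries.

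**Figure D4:**
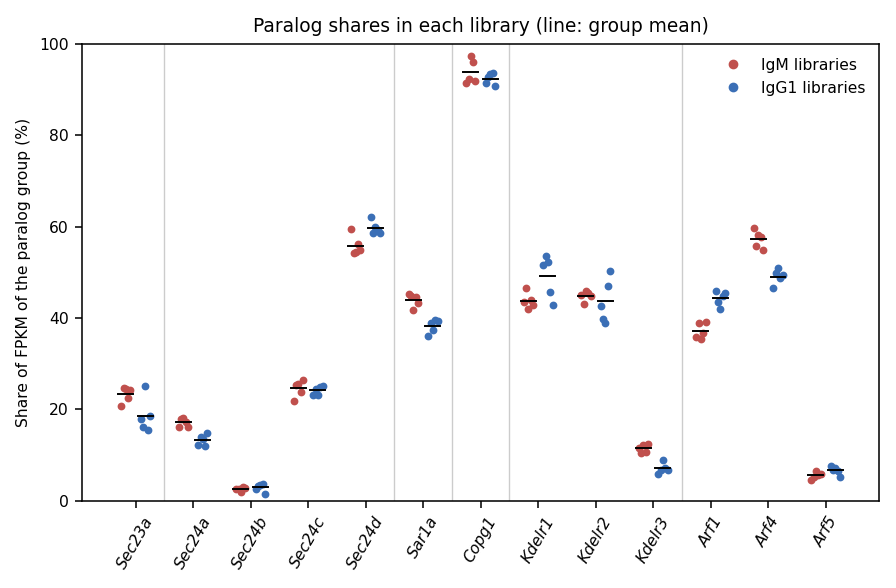
Share of each paralog in the summed FPKM of its group, in percent, in each of 5 IgM libraries (red, left) and 5 IgG1 libraries (blue, right), with the group mean as a line. Arf4, Sar1a, Sec24a and Kdelr3 lie higher and Arf1 lower in IgM with no overlap, while Sec24d remains above 50% of Sec24 and Copg1 above 90% of gamma-COP in every library.

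Around these genes, a longer list of ER-Golgi transport genes was read from the same fit. Of 78 listed symbols, 76 were found and 72 were tested. Of these, 13 were higher in IgM, 11 were lower and 48 did not pass, which is 33.3% against the 38.3% background, with a median log2 difference of 0.055 against 0.051 over all tested genes. The fit of genes averaging 5 FPKM or more called 47.4% of its genes, and 16 of this list higher and 11 lower. Golgb1 (giantin), a large Golgi tether, averaged 15.8 ± 2.29 FPKM in IgM and 6.34 ± 0.686 FPKM in IgG1 plasma cells, a log2 difference of 1.19 (SE 0.14, adjusted p 3.99e-06). Mia2, which helps ER exit sites load large cargo, averaged 89.9 ± 3.55 FPKM and 58.3 ± 6.01 FPKM (log2 difference 0.62, SE 0.079, adjusted p 6.58e-06). Napg (gamma-SNAP), an adaptor for SNARE disassembly, averaged 10.0 ± 2.26 FPKM and 5.17 ± 1.01 FPKM, and Cog4, a subunit of the Golgi COG tether, averaged 20.7 ± 3.30 FPKM and 14.5 ± 1.96 FPKM, with log2 differences of 0.83 and 0.48 (adjusted p 0.0011 and 0.00809). Cog4 did not pass without IgG1 replicates 4 and 5 (adjusted p 0.0741).

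The 4 that passed with the largest differences in the other direction were Tmed1, Arf6, Cnih4 and Trappc4. Tmed1, a p24 protein, averaged 14.3 ± 3.13 FPKM in IgM and 24.3 ± 1.65 FPKM in IgG1 plasma cells, and Arf6, a plasma membrane and endosomal ARF, averaged 52.0 ± 2.37 FPKM and 87.0 ± 9.48 FPKM (SD, n = 5 each). Their log2 differences were -0.75 and -0.73 (adjusted p 0.000363 and 1.30e-06). Cnih4, a cornichon-family cargo receptor, averaged 38.9 ± 3.13 FPKM and 58.1 ± 8.08 FPKM, and Trappc4, a core subunit of the TRAPP tethering complex, averaged 35.3 ± 4.80 FPKM and 51.6 ± 3.31 FPKM, with log2 differences of -0.56 and -0.54 (adjusted p 0.000181 and 0.000237). None of these 8 genes overlapped between the groups.

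Among 8 transcription factors and sensors known to raise secretory pathway genes, or listed with them, 6 were tested. Xbp1, the unfolded protein response factor that drives plasma cell secretory capacity, was lower in IgM, at 2928 ± 124 FPKM against 3194 ± 116 FPKM in IgG1 plasma cells (log2 difference -0.13, SE 0.036, adjusted p 0.0104), with overlapping libraries. This call was lost in limma without trend and robust settings (adjusted p 0.174), and with length and GC trends removed Xbp1 changed sign (0.05, adjusted p 0.281). Ern1 (IRE1 alpha), the sensor that splices Xbp1 RNA, averaged 15.1 ± 0.901 FPKM in IgM and 10.1 ± 1.36 FPKM in IgG1 plasma cells (log2 difference 0.54, SE 0.13, adjusted p 0.00297). Atf6, a membrane-bound factor of the same response, averaged 42.6 ± 1.86 FPKM and 35.2 ± 2.45 FPKM (0.27, SE 0.084, adjusted p 0.0175). Prdm1 (Blimp-1) averaged 53.5 ± 2.71 FPKM and 29.2 ± 2.70 FPKM (0.86, SE 0.089, adjusted p 6.37e-07). These 3 were higher in IgM without overlap, although Atf6 did not pass with length and GC trends removed (0.08, adjusted p 0.531). Creb3l2, a factor known to raise Sec23a, and Creb3 did not pass (adjusted p 0.731 and 0.665), though Creb3 did with those trends removed (0.23, 0.00929), and Creb3l1 and Klf4 averaged below the 1 FPKM needed for testing.

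Promoters were searched for elements of the unfolded protein response because several coat genes are known targets of it. The 250 bases before each RefSeq start site (GRCm38.p6) were read for 41 of the 45 genes, in 46 promoters, leaving out Tmed2, Kdelr2, Arcn1 and Tmed7. The XBP1-binding element TGACGTGG, on either strand, was found in 5 promoters of 5 genes, or 10.9%, against 0.563% of 32851 promoters of all genes, 0.761% of 9467 promoters of tested genes and 1.37% of 73 promoters of the longer ER-Golgi list. The ER stress elements ERSE and ERSE-II, searched on both strands, were found in none of the 46, and in 0.113% and 0.0304% of all promoters. The 5 stretches are shown because they carry the match, which stands in capitals, as read on the strand of the gene, so that CCACGTCA is the same element on the other strand.
Sec24d: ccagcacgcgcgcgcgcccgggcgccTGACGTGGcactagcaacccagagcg
Copb1: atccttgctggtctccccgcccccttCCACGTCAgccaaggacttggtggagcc
Arf1: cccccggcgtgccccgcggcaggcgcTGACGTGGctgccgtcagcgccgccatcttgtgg
Kdelr3: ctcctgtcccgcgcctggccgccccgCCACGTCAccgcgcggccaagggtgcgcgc
Gbf1: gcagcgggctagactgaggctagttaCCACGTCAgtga

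The stretches lie at chr3:123267444-123267495 (Sec24d, plus strand), chr7:114254681-114254734 (Copb1, minus strand), chr11:59228213-59228272 (Arf1, minus strand), chr15:79516352-79516407 (Kdelr3, plus strand) and chr19:46152520-46152557 (Gbf1, plus strand). The match began 26, 28, 84, 30 and 12 bases before the RefSeq start site. In GENCODE, whose gene starts differ, the match of Kdelr3 began 33 bases before the gene, and those of Sec24d, Copb1, Arf1 and Gbf1 began 15, 3, 24 and 37 bases inside it. The genes with a match did not share a direction: Kdelr3 was higher in IgM, Arf1 was lower, and Sec24d, Copb1 and Gbf1 did not pass, with log2 differences of 0.07, 0.15 and 0.07. A match is a description of these letters and not evidence of binding.

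Transcript length and base composition differed with the calls. The longest annotated transcript had a median of 3490.5 bases in the 18 genes higher in IgM, 2098.5 bases in the 8 lower and 3346 bases in the 19 that did not pass, and median GC content was 46.1%, 51.6% and 49.9%. Across the 45 genes, which share the same 10 libraries, the log2 difference had a Pearson r of -0.35 with GC content and 0.26 with log2 length, against -0.22 and 0.04 over 9876 tested genes. With smooth length and GC trends removed from each library, 13 genes were higher in IgM and 5 lower. Stx5a stayed at 0.86, Uso1 at 0.55 and Tmed9 at -0.31, whereas Sec24a moved to 0.29 (adjusted p 0.0127) and Kdelr1 to -0.24 (adjusted p 0.0305). Tmed3 and Arfgap3 moved up to 0.37 and 0.40.

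Other calls ended under this setting. Sec23a (0.20, adjusted p 0.214), Tmed5 (0.21, 0.0627), Arcn1 (0.10, 0.151), Copz1 (-0.10, 0.151), Lman2 (-0.10, 0.233), Tmed10 (0.03, 0.623), Copb2 (0.12, 0.104), Gosr1 (0.42, 0.0993) and Kdelr2 (-0.16, 0.107) no longer passed, and Cope changed sign (0.08, 0.284), as did Arf1. Tmed7 (-0.32, adjusted p 0.00225), Sec23b (-0.19, 0.0317) and Tmed4 (0.36, 0.0319) passed where they had not before. How much of each difference follows length and GC was not tested beyond this setting.

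**Figure D5:**
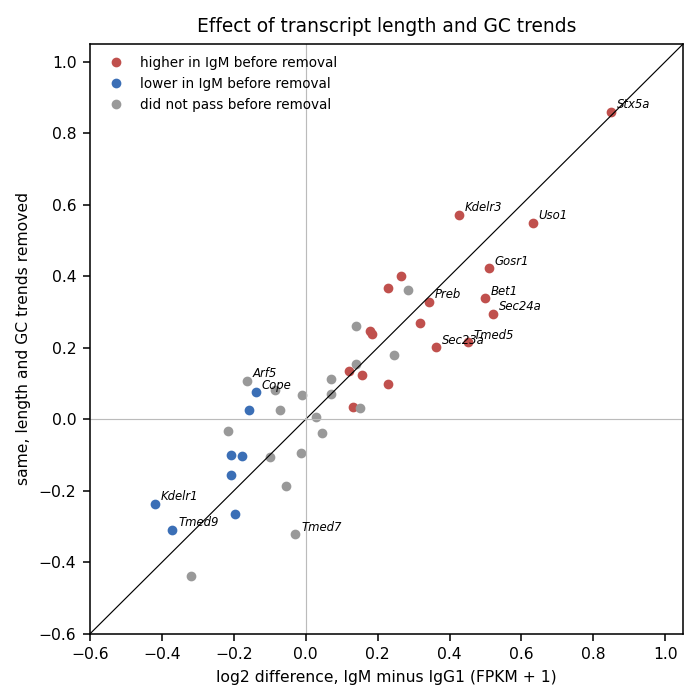
Log2 difference, IgM minus IgG1, of each of the 45 genes as tested (x axis) and with length and GC trends removed from each library (y axis), coloured by the call before removal, with a line of equality. Stx5a, Uso1 and Preb lie near the line, Sec24a, Tmed5 and Kdelr1 move towards 0, and Tmed7 moves from -0.03 to -0.32.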

How the data were processed

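RNA was measured in 10 libraries of sorted mouse splenic plasma cells, grouped by their sample titles into 5 IgM and 5 IgG1 libraries. Per the labels' protocols, RNA extraction used the miRNeasy Micro kit and library preparation Takara's SMART-Seq mRNA kit, which keeps no strand. Per the submitters' processing notes, HISAT2 2.1.0, Cufflinks 2.2.1, Cuffdiff and GRCm38 were used, with settings not given in the sources used here. Deposited columns hold FPKM computed by the authors, per the file headers. Because such values are relative within a library, abundant immunoglobulin RNA could lower the rest. One alternative setting scaled the libraries to a common total outside the immunoglobulin genes. It called 20 members higher in IgM and 6 lower, against 18 and 8 without that scaling. The part of immunoglobulin RNA was not tested beyond this setting. Summed FPKM was not a common total. It was 1333417 in IgG1 replicate 2, with 62.5% from immunoglobulin genes, and 1931343 in IgG1 replicate 5, with 73.1%. No 2 files held identical values.

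From these values, 47305 of 47719 identifiers were matched to GENCODE M21 for symbols and coordinates, and 414 were not. Depth was derived from the spacing of low FPKM values, assuming a fragment of 200 bases, and gives relative precision only. Genes averaging 1 FPKM or more were fitted as log2(FPKM + 1), a pseudocount of 1, in limma 3.58.1 under R 4.3.3 (eBayes with trend and robust, a single group term, two-sided, Benjamini-Hochberg adjustment over all 9900 tested genes at 0.05), and the members were read from that fit. This scale understates changes of low genes. Shares of 13 paralogs were compared by exact permutation in scipy 1.17.1, adjusted over the 13. Python 3.11.15 was used with numpy 2.4.6, pandas 2.3.3 and, for plots, matplotlib 3.10.9. The 23 alternatives changed the pseudocount, filter, scaling, variance model, replicate block, length and GC trends and the libraries used.

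Members and lists were chosen with earlier results of these data known. Values in every library are given for the most abundant gene of each complex and up to 4 called genes of each by size of difference, and group means for up to 4 called genes per direction of the longer list with at least 5 FPKM in the higher group. Replicate numbers come from the sample titles, which do not say that they pair the libraries. Promoters came from RefSeq. Protein sequences were not used here. One listed marker gene, and the summed level of its list, are not reported here.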

Additional observations from a re-analysis of the deposited data

Results flagged for a closer look

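The level of each member and each paralog share, in IgM and in IgG1 libraries, gave 116 groups of 5 values. Of these, 5 held a library far from the other 4. Chance gives about 1 in 20, so this count is no more than chance alone would give. Sec24a was at 43.8 FPKM in IgM replicate 5, against 46.6 to 47.7 FPKM in the other IgM libraries, and remained above every IgG1 library. Sec16a was at 26.4 FPKM in IgG1 replicate 4, against 36.2 to 40.1 FPKM in the other IgG1 libraries. Copb1 was at 149 FPKM in IgG1 replicate 5 (others 121 to 127 FPKM), as was Tmed2 at 750.3 FPKM in the same library (others 685 to 703 FPKM). Tmed5 was at 35.7 FPKM in IgG1 replicate 1, against 40.0 to 41.4 FPKM in the other IgG1 libraries.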

How the results depend on the processing

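Against 18 members higher and 8 lower in IgM, no filter on low values gave 11 and 5, limma without trend and robust settings 10 and 4, quantile normalization 18 and 4, removal of length and GC trends 13 and 5, and leaving out IgG1 replicates 4 and 5 18 and 4. Leaving out 1 library at a time gave 10 to 18 higher and 5 to 8 lower. In the longer ER-Golgi list, 13 were higher and 11 lower, against 8 higher with no filter and 7 lower with length and GC trends removed. Quantile normalization shifted the median log2 difference of all genes by -0.112.

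Members and regulators with small differences changed sign, none of them past the threshold when reversed: Gosr2 (0.015) and Sec22b (0.010) with a common total outside the immunoglobulin genes; Sec24b (-0.135), Gosr2 (0.038), Sec22b (0.027), Tmed2 (-0.022) and Tmed7 (0.029) under quantile normalization; Surf4 (0.081), Arf5 (0.108), Gosr2 (0.068), Copg1 (-0.039), Sec13 (0.026), Arf1 (0.025), Cope (0.075), Xbp1 (0.052) and Creb3l2 (-0.042) with length and GC trends removed; and Sec24b (-0.110), Gosr2 (0.057), Gbf1 (-0.031), Sec22b (0.048) and Creb3l2 (-0.080) without IgG1 replicates 4 and 5. Leaving out single libraries, Gosr2 ran from -0.053 to 0.023, Sec24b from -0.154 to 0.121, Sec22b from -0.053 to 0.011, Creb3l2 from -0.002 to 0.101 and Tmed7 from -0.075 to 0.024, and the shares of Sec24c and Kdelr2 from -0.049 to 1.058 and from -0.024 to 2.828 percentage points. Shares passing ran from 5 to 7. The cause was not tested.

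Deviations of libraries with the same replicate number correlated weakly (-0.0357 to 0.0966), and numbers 1, 3 and 4 correlated best with their own. Correlations so few and weak cannot decide whether the numbers pair the samples. With a replicate block 13 members were higher and 6 lower, and with length and GC trends removed as well 12 and 5, with 7 lower in the longer list and the same 9 reversed values as without the block. A paired sign-flip cannot go below 0.0625, and 0 of the 13 shares passed it (adjusted p 0.116 for the 5 called above).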

Other observations

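The RAB1 GTPases, which recruit p115 to vesicles, were called in opposite directions; they were chosen after their values were seen. Rab1a was at 207, 177, 190.0, 208 and 177 FPKM in IgM libraries and at 139.5, 138, 149, 132 and 146 FPKM in IgG1 libraries, higher in IgM without overlap (log2 difference 0.44, SE 0.063, limma adjusted p 2.42e-05). Rab1b was at 60.5, 77.1, 72.6, 62.9 and 70.6 FPKM in IgM libraries and at 96.4, 83.4, 100.1, 97.2 and 103 FPKM in IgG1 libraries, lower in IgM without overlap (log2 difference -0.48, SE 0.082, adjusted p 0.000148), and it did not pass with length and GC trends removed (-0.21, adjusted p 0.0511).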
